A study of Homo sapiens with 9 samples.

Results

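The proteins of the spliceosomal snRNPs, the RNA-protein particles that recognise and remove introns, were followed at the mRNA level in the Burkitt lymphoma cell line CA46, an established line of human B cells, in which a translocation drives MYC. The members were the genes whose symbol, alone or as a whole name in a row that joins overlapping genes, begins with SNRP, or with LSM, SF3A, SF3B or PRPF followed by a digit. This gave 47 genes of 23169 named ones, after 1 pseudogene was left out, and 45 of them had a mean of at least 1 FPKM (fragments per kilobase of transcript, relative to the fragments mapped in the library) over the 4 libraries, as had 11171 genes in all. The choice went by spelling, so that snRNP proteins with the prefix SNRNP are described at the end among genes outside the list.

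All cells had been infected with a virus for 48 h and were kept for 20 h with DMS (dimethyl succinate, a cell-permeable succinate ester) at 10 mM or with PBS. The 4 groups were Myc shRNA in PBS, Myc shRNA in DMS, non-targeting control in PBS and non-targeting control in DMS, with 1 RNA-seq library each, so no value of a single library carries a replicate error. MYC, the target of the shRNA, stood at 17.1 FPKM in knockdown cells in PBS and 626 FPKM in knockdown cells in DMS, against 1868 FPKM in control cells in PBS and 1650.3 FPKM in control cells in DMS. The knockdown library in DMS thus held 37.9% of the MYC mRNA of its control and the knockdown library in PBS 0.913%, and DMS exposure cannot be told apart from this difference in MYC level. All 5 of the 6 B cell markers found under their own name were above 1 FPKM in every library, and erythroid markers were listed at 0. The summed B cell markers were 3955 and 2499 FPKM in the knockdown libraries in PBS and DMS, against 1479 and 984 FPKM in the control libraries. The summed myeloid markers (4 of 6 above 1 FPKM in every library, CD14 and CSF1R near or at 0) were 248 and 184 FPKM under the shRNA, against 124 and 88.3 FPKM in control. This sum joins markers that moved differently. LYZ was 48.7 and 33.3 FPKM under the shRNA in PBS and DMS, against 8.31 and 4.19 FPKM in control. CD68 and ITGAM were also higher under the shRNA in both media, in DMS at 31.4 and 41.7 FPKM, against 4.45 and 3.26 FPKM in control. AIF1 made up most of the control sum (97.9 and 76.2 FPKM). It was lower under the shRNA in PBS, at 74.3 FPKM, and nearly equal in DMS. The summed epithelial and packaging cell markers moved in the direction of most members, at 25.2 and 145 FPKM in the knockdown libraries in PBS and DMS, against 280 and 337 FPKM in the control libraries. Nearly all of this was TUBB3 (24.4 and 143 FPKM with the shRNA, against 275 and 332 FPKM in control), with EPCAM at 0.808 and 2.82 FPKM with the shRNA, against 4.79 and 4.69 FPKM in control, while KRT8 and KRT18 were listed at 0 and KRT19 was at most 0.0554 FPKM. T cell markers summed to between 8.29 and 9.82 FPKM and germinal centre B cell markers to between 69.2 and 87.9 FPKM. Nearly all of the germinal centre sum was CD38 (65.9 to 86.3 FPKM), with MME at 1.32 to 2.99 FPKM and BCL6 at most 0.426 FPKM. The part of these marker levels in the results below was not tested. From the step between low values, 1 FPKM was put at 21.6 to 24.6 fragments per kilobase in the 4 libraries. Only values of 0.03 to 0.06 (FPKM times kilobases of genomic span) were used, and this window bounds the result. It therefore cannot show the depth of a library or compare depths.

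As background, an snRNP consists of a small nuclear RNA and a ring of Sm proteins that is built around it in the cytoplasm by the SMN complex, after the methylosome around PRMT5 has methylated some Sm tails. U6 snRNA carries a related ring of LSM proteins instead. The U1 snRNP marks the start of the intron and U2 with its SF3A and SF3B complexes the branch site, and the U4/U6.U5 tri-snRNP, in which many PRPF proteins sit, then brings in the catalytic RNA. Cells with high MYC make large amounts of pre-mRNA, and components of the core spliceosome have been described as genes on which such cells depend.

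In PBS most of these genes were lower in knockdown cells relative to genes in general. FPKM is relative to the library and the libraries were rescaled to each other, so amounts of mRNA per cell are not shown. Of the 45 members that passed, 19 were at least 2-fold lower than in control and none was at least 2-fold higher, against 16.9% of all genes tested that were lower by this measure and 14.4% that were higher. The median log2 ratio on log2(FPKM + 1) was -0.81 over the members and -0.01 over all genes, and 39 of 45 members were below 0, against 50.2% of all genes. In bulk RNA, fewer cells of a kind and less RNA per cell cannot be told apart. In DMS only SNRPF was at least 2-fold lower (background 3.53%) and none 2-fold higher (background 9.64%), 37 were below 0 (background 50.3%), the members' median was -0.51 and the median of all genes was -0.00. At a 1.5-fold limit 26 members were lower in PBS (background 27.9%) and 18 in DMS (background 17.1%), while LSM8 in PBS was the 1 member higher (background 26.1% in PBS and 20.1% in DMS). The comparisons in PBS and DMS share no library, and across the 45 members their ratios correlated with r = 0.964 (Pearson) and rho = 0.968 (Spearman), against 0.928 and 0.961 over all genes. The order of the members was therefore nearly the same in both media, as it was for genes in general.

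**Figure D1:**
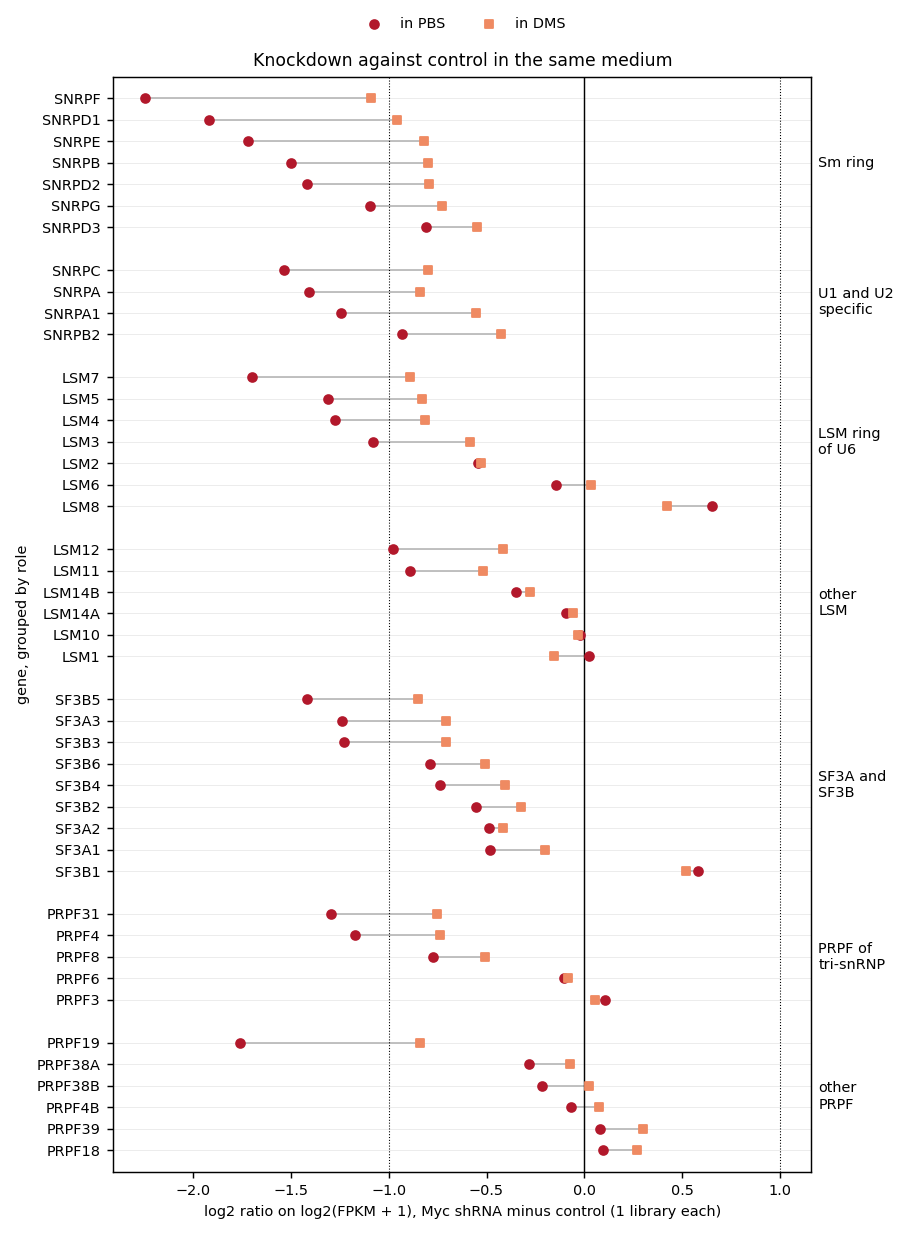
Log2 ratio of Myc shRNA to control for 44 of the 45 members with a mean of at least 1 FPKM, grouped by role, in PBS (circles) and in DMS (squares), from 1 library per group; dotted lines mark 2-fold. The Sm ring, from SNRPF at -2.25 to SNRPD3 at -0.81 in PBS, lies to the left of 0 throughout, while LSM8 and SF3B1 lie to the right in both media.

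Over both media a limma fit with virus and medium as terms tested the knockdown, with Benjamini-Hochberg adjustment over all 11171 genes. Of the 45 members 27 fell and 2 rose, beside 27.8% of all genes that fell and 27.8% that rose. The 4 libraries leave 1 residual degree of freedom per gene, which is the difference between its knockdown ratios in PBS and in DMS. MYC stood at 0.913% of control in PBS and 37.9% in DMS, so this difference cannot be read as replicate noise. To it limma added 5.119 prior degrees of freedom, estimated from all genes tested. Separate cultures are not recorded in the labels. The p-values therefore do not measure the spread between replicate cultures. Without the medium term 26 members were called, and in that form leaving out the control library in PBS, or that in DMS, left limma calling 0 of 45 (15 and 17 had p under 0.05 before adjustment); leaving out the knockdown library in PBS, or that in DMS, left 29 and 30. Each of the 29 called members kept the sign of its change in all of these fits. LSM8 and LSM11 lost their calls without the knockdown library in PBS, and with no filter on low values 18 of the 29 calls were kept.

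**Figure D2:**
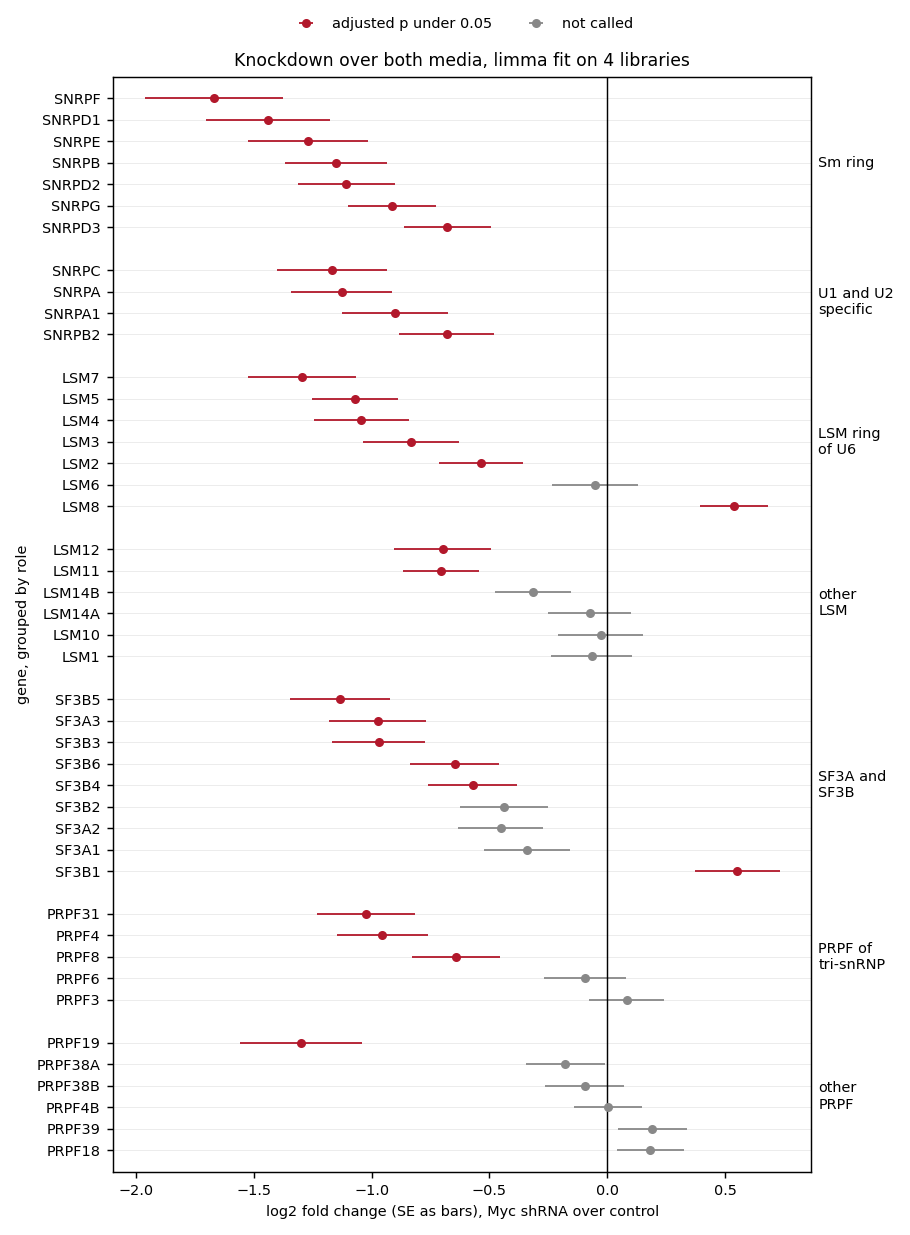
Log2 fold change of Myc shRNA over control across both media from the limma fit on 4 libraries, for 44 of the 45 members that passed, with the standard error as bars; red points have an adjusted p under 0.05 and grey points do not. All 7 Sm ring members that passed lie left of 0 in red, LSM8 and SF3B1 lie right of 0 in red, and most of the other PRPF and other LSM proteins are grey.

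Promoters are shown next because most members were lower together and because SF3B1 went the other way. RefSeq (GRCh38.p14) windows from 250 bases before to 50 bases after a start were held for 38 of the 47 members; among those without one were LSM1, LSM6, LSM14A, PRPF3, PRPF39, PRPF4B, SF3B3 and SNRPD1. They were searched on both strands for CACGTG, the canonical E-box of MYC and MAX, for CACGCG, a non-canonical E-box, for CCGGAAG, the core of ETS factor sites, and for the palindromic site of NRF1. The canonical E-box occurred in 1 of 38 members, SF3B1, against 13.2% of the 8165 tested genes with a window. The non-canonical form was found in 8 of 38, against 23.2%, and the ETS core in 17 of 38, against 1963 of the 8165. NRF1 sites occurred in 1, against 2.91%. Over all 35116 windows listed, the 4 motifs were in 7.26%, 11.4%, 10.3% and 1.24% in the same order. Among the members at least 2-fold lower in PBS, 0 of 17 with a window held the canonical E-box and 8 of 17 the ETS core; among the other members these were 1 of 21 and 9 of 21. The letters are a description of these windows and say nothing of what binds there.

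The stretches printed are the 250 bases before the start, 5′ to 3′ on the gene's strand, with matches in capitals: SF3B1 (chr2:197435094-197435343, minus strand), which rose and holds the only canonical E-box, at position -43, with a non-canonical one at -7; SNRPB (chr20:2470790-2471039, minus strand) and SNRPD2 (chr19:45692317-45692566, minus strand), the most abundant Sm mRNAs, with the ETS core at -41 and -63; SNRPF (chr12:95858702-95858951, plus strand), the member with the lowest ratio, which in this stretch holds none of the 4 motifs; and LSM7 (chr19:2328587-2328836, minus strand), the lowest of the LSM ring, with an NRF1 match at -48 that overlaps a non-canonical E-box at -41.
SF3B1: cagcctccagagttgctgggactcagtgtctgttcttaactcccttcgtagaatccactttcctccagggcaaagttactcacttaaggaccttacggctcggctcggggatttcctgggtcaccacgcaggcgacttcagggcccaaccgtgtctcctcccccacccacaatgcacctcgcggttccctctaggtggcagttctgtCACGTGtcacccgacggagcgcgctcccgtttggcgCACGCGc
SNRPB: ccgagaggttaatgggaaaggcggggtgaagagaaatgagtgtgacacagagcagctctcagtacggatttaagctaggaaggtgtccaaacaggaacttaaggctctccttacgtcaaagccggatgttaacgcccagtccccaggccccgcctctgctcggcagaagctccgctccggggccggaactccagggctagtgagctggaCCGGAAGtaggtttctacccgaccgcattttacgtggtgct
SNRPD2: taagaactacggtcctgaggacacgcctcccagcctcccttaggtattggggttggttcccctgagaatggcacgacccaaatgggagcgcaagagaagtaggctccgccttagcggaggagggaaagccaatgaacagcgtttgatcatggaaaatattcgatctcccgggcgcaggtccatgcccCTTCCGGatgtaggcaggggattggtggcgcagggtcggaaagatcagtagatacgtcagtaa
SNRPF: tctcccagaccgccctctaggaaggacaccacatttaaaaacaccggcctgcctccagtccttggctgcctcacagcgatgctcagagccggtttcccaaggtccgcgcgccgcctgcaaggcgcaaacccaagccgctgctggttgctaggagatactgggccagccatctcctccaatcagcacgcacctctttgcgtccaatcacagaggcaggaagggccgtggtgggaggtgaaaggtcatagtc
LSM7: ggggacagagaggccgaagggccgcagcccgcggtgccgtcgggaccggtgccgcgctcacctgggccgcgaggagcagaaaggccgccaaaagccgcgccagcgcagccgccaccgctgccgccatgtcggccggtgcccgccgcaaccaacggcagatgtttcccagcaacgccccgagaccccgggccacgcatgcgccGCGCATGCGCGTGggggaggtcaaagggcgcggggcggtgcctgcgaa

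The Sm ring, the shared core of U1, U2, U4 and U5, fell in all 7 members that passed (limma), and 6 of these were at least 2-fold lower in PBS. Its median log2 ratio was -1.50 in PBS and -0.80 in DMS. The summed FPKM of the 7 was 892 in knockdown cells in PBS and 1348 in knockdown cells in DMS, against 2487 in control cells in PBS and 2390.0 in control cells in DMS. Of the 8 symbols of this group SNRPN, an imprinted paralogue of SNRPB that stood in a row joined with SNURF, was listed at 0 in all 4 libraries. Reads of such a near-identical pair can be split by the counting, so the level of SNRPB is uncertain to that degree.

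Within the ring, SNRPE, SNRPF and SNRPG form a trimer before assembly. SNRPF (chromosome 12, 96252709 to 96260238, hg19) was 73.8 FPKM in knockdown cells in PBS and 165 FPKM in knockdown cells in DMS, against 354 FPKM in control cells in PBS and 351 FPKM in control cells in DMS. The fitted log2 fold change was -1.67 (0.29 SE, limma adjusted p = 0.00675), the lowest value of any member. SNRPE was 32.4 and 50.3 FPKM in knockdown cells in PBS and DMS, against 109 and 89.7 FPKM in control cells (log2 fold change -1.27 ± 0.25 SE, limma adjusted p = 0.00858). SNRPG was 213 and 261 FPKM under the shRNA, against 456 and 434 FPKM in control (-0.91 ± 0.19 SE, limma adjusted p = 0.00889). The 3 partners therefore kept 20.8%, 29.7% and 46.6% of their control level in PBS in the order SNRPF, SNRPE, SNRPG, and 46.9%, 56.1% and 60.2% in DMS. In all 3 both knockdown libraries lay below both control libraries, as they did for 41.9% of all genes.

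SNRPD1 and SNRPD2, which pair with each other, stood at very different levels. SNRPD1 (chromosome 18, 19192230 to 19210206) was 26.2 and 47.1 FPKM in knockdown cells in PBS and DMS, against 102 and 92.3 FPKM in control cells, with a log2 fold change of -1.44 (0.26 SE, limma adjusted p = 0.00717). SNRPD2 was 258 and 391 FPKM under the shRNA, against 690 and 680.4 FPKM in control (-1.11 ± 0.21 SE, limma adjusted p = 0.00742). SNRPD1 kept 25.7% of its control level in PBS and SNRPD2 37.3%, and in the knockdown SNRPD1 replaced SNRPD3 as the lowest Sm mRNA per length.

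SNRPB and SNRPD3 form the remaining pair. SNRPB (chromosome 20, 2442281 to 2451499) was 247 and 384 FPKM in knockdown cells in PBS and DMS, against 702 and 670.4 FPKM in control cells (log2 fold change -1.15 ± 0.22 SE, limma adjusted p = 0.00755). SNRPD3 was 42.4 and 48.9 FPKM under the shRNA, against 75.0 and 72.1 FPKM in control (-0.68 ± 0.18 SE, limma adjusted p = 0.0222). The ratio of SNRPB to SNRPD3 was 5.82 and 7.86 in knockdown cells in PBS and DMS, against 9.35 and 9.30 in control cells. SNRPD3 lies in a locus that the tables give to GUCD1 as well, and GUCD1 was 155 and 105 FPKM under the shRNA, against 72.1 and 62.1 FPKM in control; the strand setting of the counting is not known here, so reads of overlapping genes cannot be told apart, and the part of GUCD1 in the SNRPD3 value was not tested. The highest Sm mRNA exceeded the lowest 9.83-fold and 8.31-fold in the knockdown libraries in PBS and DMS, and 9.35-fold and 9.44-fold in the control libraries.

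**Figure D3:**
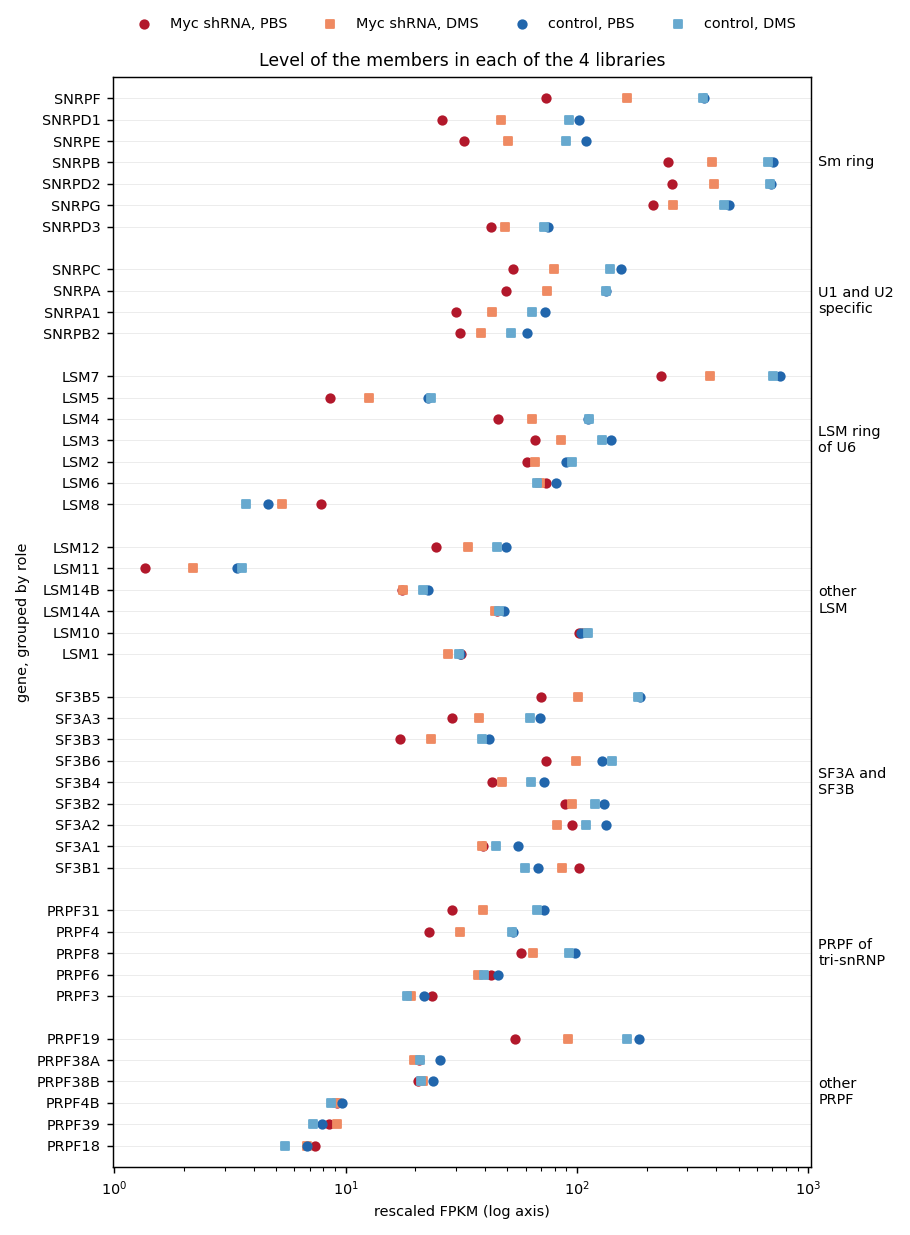
Rescaled FPKM (log axis) of 44 of the 45 members that passed in each of the 4 libraries, grouped by role; circles are PBS and squares DMS, red shades Myc shRNA and blue shades control. In the Sm ring both knockdown libraries lie left of both control libraries for all 7 genes, whereas for genes such as LSM10, LSM14A and PRPF6 the 4 points lie close together.

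The SNRP-named proteins found in U1 or U2 alone all fell (4 of 4), with a median ratio of -1.33 in PBS and -0.68 in DMS. SNRPC, the U1 protein that steadies pairing with the start of the intron, was 52.9 and 79.6 FPKM in knockdown cells in PBS and DMS, against 155 and 139 FPKM in control cells (log2 fold change -1.17 ± 0.23 SE, limma adjusted p = 0.00858). SNRPB2, which binds a stem-loop of U2 snRNA, was 31.2 and 38.3 FPKM under the shRNA, against 60.5 and 51.9 FPKM in control (-0.68 ± 0.20 SE, limma adjusted p = 0.0301). These were the lowest and the highest ratio of the group in PBS, at -1.54 and -0.93. SNRPA of U1 and SNRPA1 of U2, the partner of SNRPB2, lay between them at -1.41 and -1.24. SNRNP70, a U1 protein whose name falls outside the rule, was 153 and 179 FPKM in knockdown cells in PBS and DMS, against 241 and 231 FPKM in control cells, and was not called (log2 fold change -0.51 ± 0.19 SE, limma adjusted p = 0.0566).

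The LSM ring of U6 was split. Of its 7 members 5 fell, 1 rose and LSM6 was not called, with 4 at least 2-fold lower in PBS and a median ratio of -1.08 in PBS and -0.59 in DMS. LSM7 (chromosome 19, 2321520 to 2355100) was 232 and 377 FPKM in knockdown cells in PBS and DMS, against 753 and 701 FPKM in control cells (log2 fold change -1.30 ± 0.23 SE, limma adjusted p = 0.00687). SPPL2B shares this locus in the tables, at 30.8 and 24.7 FPKM under the shRNA, against 17.8 and 18.9 FPKM in control. LSM3, LSM4 and LSM5 were at -1.08, -1.27 and -1.31 in PBS, and LSM2 at -0.54. LSM6 was 73.2 and 69.1 FPKM under the shRNA, against 80.9 and 67.4 FPKM in control, and the libraries overlapped.

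LSM8, the subunit that keeps the ring in the nucleus on U6, was the exception. It was 7.80 and 5.32 FPKM in knockdown cells in PBS and DMS, against 4.60 and 3.71 FPKM in control cells, and its rise was 0.54 in log2 (0.15 SE, limma adjusted p = 0.0216). This call was lost with no filter on low values (adjusted p = 0.0776), without the medium term (0.0914) and, in that form, without the knockdown library in PBS (0.219) or either control library (0.191 and 0.378). LSM1, which takes the place of LSM8 in the cytoplasmic ring that promotes mRNA decapping, was 31.6 and 27.6 FPKM under the shRNA, against 31.1 and 30.8 FPKM in control, with overlapping libraries and no call (limma adjusted p = 0.764). The ratio of LSM1 to LSM8 was 4.05 and 5.18 in the knockdown in PBS and DMS, against 6.76 and 8.30 in control. That of LSM7 to LSM8 was 29.7 and 70.8 in the knockdown, against 164 and 189 in control. LSM1 shares its locus with BAG4, which was at most 5.42 FPKM.

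Of the other LSM proteins, including LSM1, 2 of 6 fell and none was 2-fold lower in PBS on the log2(FPKM + 1) scale. With a pseudocount of 0.1 FPKM, LSM11 and LSM12 both were, and without one LSM11 stood at 40.2% and LSM12 at 49.7% of control. LSM12, an Sm-like protein outside both rings, had the lowest ratio on the log2(FPKM + 1) scale (-0.98 in PBS), at 24.5 and 33.6 FPKM in knockdown cells in PBS and DMS, against 49.3 and 45.2 FPKM in control cells (log2 fold change -0.70 ± 0.21 SE, limma adjusted p = 0.0296). In the U7 snRNP, which processes the ends of histone mRNAs, LSM10 and LSM11 stand in for SNRPD1 and SNRPD2. LSM11 fell (-0.71 ± 0.16 SE, limma adjusted p = 0.0123), at the low level of 1.36 and 2.18 FPKM under the shRNA, against 3.37 and 3.56 FPKM in control. LSM10 was 102 and 109 FPKM under the shRNA, against 104 and 111 FPKM in control, and was not called (limma adjusted p = 0.903). LSM14A and LSM14B, of cytoplasmic RNA granules, had ratios of -0.09 and -0.35 in PBS.

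In the SF3A and SF3B complexes of U2, 5 of 9 members fell and 1 rose, with a median ratio of -0.74 in PBS and -0.42 in DMS. SF3B5, a small subunit, had the lowest ratio (-1.42 in PBS), at 69.6 and 101 FPKM in knockdown cells in PBS and DMS, against 188 and 183 FPKM in control cells (log2 fold change -1.13 ± 0.21 SE, limma adjusted p = 0.00755). The scaffold subunit SF3B3 and the SF3A subunit SF3A3 were also 2-fold lower in PBS, at -1.23 and -1.24. SF3B4 and SF3B6 fell by 0.57 and 0.65, while SF3A1, SF3A2 and SF3B2 had fold changes of -0.34, -0.45 and -0.44 that were not called.

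SF3B1, the large subunit that clamps the branch site and is often mutated in blood cancers, went the other way. SF3B1 (chromosome 2, 198256698 to 198299817) was 102 and 85.9 FPKM in knockdown cells in PBS and DMS, against 68.0 and 59.5 FPKM in control cells, and both knockdown libraries lay above both control libraries, which 42.2% of all genes did. It rose by 0.55 (0.18 SE, limma adjusted p = 0.0401). The call was lost with the values as deposited (0.43, adjusted p = 0.0868), with no filter (0.0525), without the medium term (0.0594) and, in that form, without either control library (0.261 in PBS, 0.421 in DMS). The ratio of SF3B3 to SF3B1 was 0.167 and 0.271 in the knockdown in PBS and DMS, against 0.611 and 0.65 in control. Of the members, LSM8 and PRPF39 also had both knockdown libraries above both control libraries, and 34 of 45 had both below, against the 41.9% of all genes given above.

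Among the PRPF proteins of the tri-snRNP, 3 of 5 fell, and the median ratio was -0.77 in PBS and -0.51 in DMS. PRPF31, which binds U4 snRNA, had the lowest ratio (-1.30 in PBS), at 28.7 and 39.4 FPKM in knockdown cells in PBS and DMS, against 71.9 and 67.1 FPKM in control cells (log2 fold change -1.02 ± 0.21 SE, limma adjusted p = 0.00879). TFPT shares its locus and lay between 13.3 and 15.6 FPKM. PRPF4 of U4/U6 followed at -1.17, and PRPF8, the large U5 protein at the catalytic centre, at -0.77. PRPF3, the direct partner of PRPF4, was 23.6 and 19.1 FPKM under the shRNA, against 21.8 and 18.4 FPKM in control, with overlapping libraries and no call (log2 fold change 0.08, limma adjusted p = 0.684). PRPF6, which bridges U5 and U4/U6, had a ratio of -0.10.

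The other PRPF proteins were mostly not called: 1 of 7 passed the test, and the median ratio was -0.21 in PBS and 0.02 in DMS, which became -0.082 with the values as deposited. That one was PRPF19, the ubiquitin ligase of the PRP19 complex, which was 53.8 and 91.4 FPKM in knockdown cells in PBS and DMS, against 185 and 164 FPKM in control cells (log2 fold change -1.30 ± 0.26 SE, limma adjusted p = 0.0085). PRPF18, a factor of the second splicing step, was 7.39 and 6.79 FPKM under the shRNA, against 6.83 and 5.47 FPKM in control (0.18, limma adjusted p = 0.309). PRPF39, which associates with U1, was 8.42 and 9.16 FPKM under the shRNA, against 7.90 and 7.25 FPKM in control (0.19, limma adjusted p = 0.303); FKBP3 at the same locus was 42.1 and 52.1 FPKM under the shRNA, against 67.7 and 65.8 FPKM in control. PRPF38A, PRPF38B and the kinase PRPF4B had ratios between -0.28 and -0.07 in PBS. PRPF40B did not pass the filter, with 0.503 and 0.761 FPKM under the shRNA, against 0.618 and 0.868 FPKM in control.

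Members with higher levels tended to have lower ratios, as did genes in general. Across the 45 members the level in control cells in DMS and the knockdown ratio in PBS, which share no library, had a Spearman correlation of -0.66. Over all 11171 genes it was -0.41. The part of library depth and gene length in these correlations was not tested. LSM3, at -1.08, and LSM12, at -0.98, were the members just inside and just outside the 2-fold limit. By control level in PBS, LSM7, SNRPB and SNRPD2 stood at the 98.7th, 98.6th and 98.6th percentile of all genes tested and LSM8 at the 26.4th.

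Few members differed by 2-fold between DMS and PBS. In knockdown cells SNRPF was at least 2-fold higher in DMS than in PBS, 1 of 45 where 4.94% of all genes were at least 2-fold higher, and none was 2-fold lower (background 0.457%). At 1.5-fold 0 were lower (background 5.05%) and 7 were higher (background 12.9%), of which 5 were in the Sm ring and the others were LSM7 and PRPF19. The members' median log2 ratio was 0.29 and that of all genes 0.00, with 33 of 45 members above 0, against 50.6% of all genes. In control cells no member differed by 1.5-fold, where 1.04% of all genes were higher and 2.11% lower (at 2-fold 0.0806% and 0.394%), and 38 of 45 lay below 0 against 58.7% of all genes (median -0.11, all genes -0.04).

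**Figure D4:**
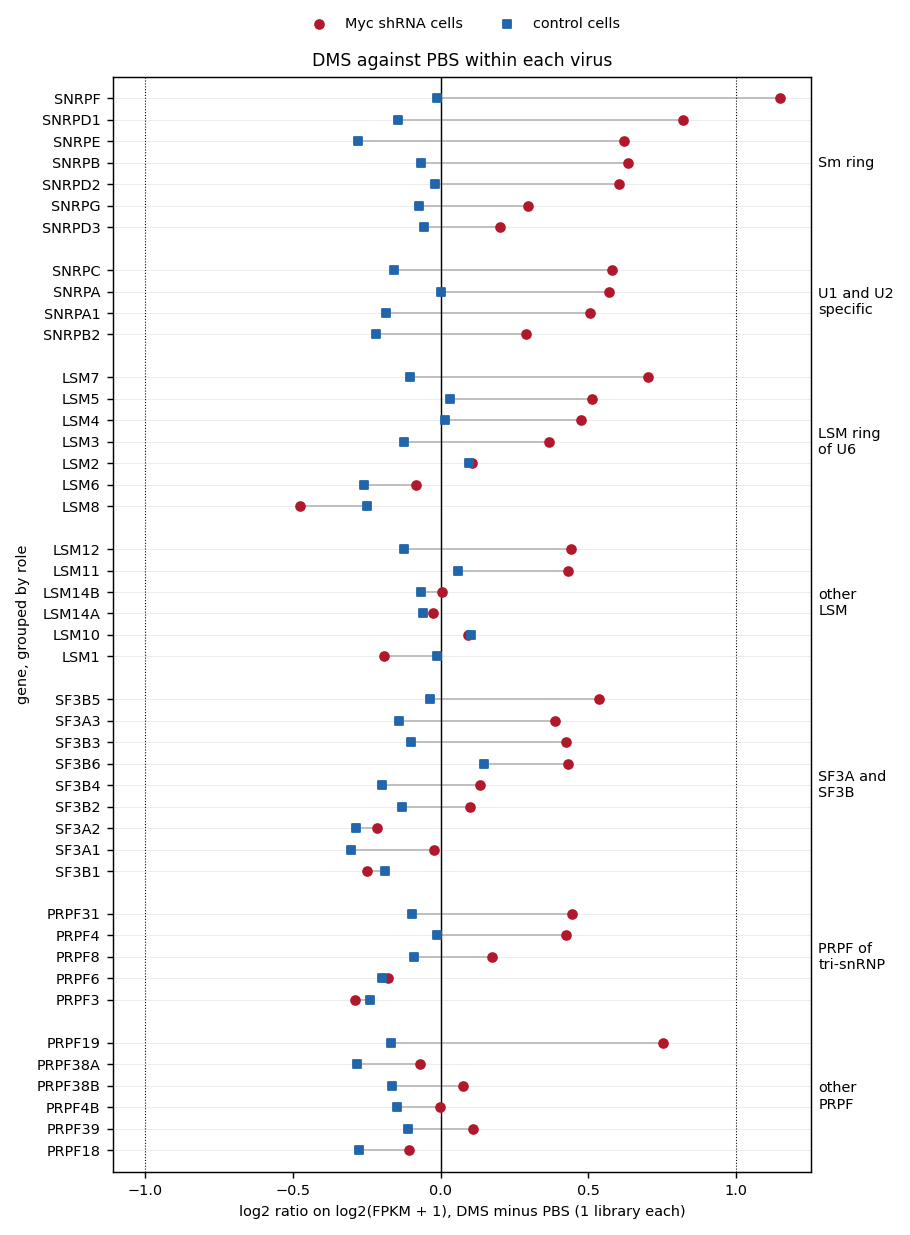
Log2 ratio of DMS to PBS for 44 of the 45 members that passed, within Myc shRNA cells (red circles) and within control cells (blue squares), 1 library per group; dotted lines mark 2-fold. All control values drawn lie between -0.30 and 0.15, while the knockdown values reach from -0.48 for LSM8 to 1.15 for SNRPF.

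The comparison of DMS with PBS in knockdown cells uses the same knockdown library in PBS as the knockdown comparison, and its values are therefore given side by side without a correlation. SNRPF had a ratio of 1.15 for DMS in the knockdown and -2.25 for the knockdown in PBS, SNRPD1 of 0.82 and -1.92, and PRPF19 of 0.75 and -1.76. LSM8 had -0.48 and 0.65, and SF3B1 had -0.25 and 0.58. In DMS the 19 members chosen for being 2-fold lower in PBS stood at 46.9% to 67.6% of their control (median 57.2%). Over both viruses limma called 0 of 45 members for DMS (lowest limma adjusted p = 0.386, 1 at an unadjusted p under 0.05) and 0% of all genes (12.8% at an unadjusted p under 0.05). This fit averages the DMS response over both viruses, and a difference between the viruses enters its residual. It therefore cannot decide whether DMS changed members in knockdown cells alone.

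Of 47 spliceosome proteins outside the list 12 fell and 5 rose by limma, where 27.8% of all genes fell and 27.8% rose. Their median ratio was -0.23 in PBS, and 6 of 47 were at least 2-fold lower against 16.9% of all genes. Neither of these counts of lower genes was above the background. At a 1.5-fold limit in PBS 17 of 47 were lower (background 27.9%) and 4 higher (background 26.1%). Below 0 were 36 of 47, against 50.2% of all genes. Of the 7 SNRNP-named genes among them, SNRNP40 of U5 was the 1 called (log2 fold change -0.80 ± 0.18 SE, limma adjusted p = 0.0124), and in PBS the U5 helicase SNRNP200 had a ratio of -0.23 and SNRNP35, of the minor spliceosome, of 0.53. The lowest of the 47 were PPIH, a cyclophilin of the tri-snRNP (30.1 and 46.5 FPKM in knockdown cells in PBS and DMS, against 101 and 83.5 FPKM in control cells), SNU13, named NHP2L1 in the tables, which binds U4 snRNA (78.4 and 122 FPKM with the shRNA, against 241 and 227 FPKM in control cells), and U2AF1, which reads the end of the intron (116 and 190 FPKM with the shRNA, against 343 and 327 FPKM in control cells). The highest were the joined row of ISY1 and RAB43 at 0.90, SLU7, a second-step factor, at 0.85, and SYF2 at 0.85. SLU7 rose (log2 fold change 0.93 ± 0.15 SE, limma adjusted p = 0.00566), at 18.1 and 15.7 FPKM under the shRNA, against 9.55 and 7.34 FPKM in control.

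The machinery that builds and carries snRNPs was lower at 9 of 21 measured genes by 2-fold in PBS (16.9% of all genes), with a median ratio of -0.74, and by limma 12 fell and 2 rose (27.8% of all genes each). GEMIN5, which recognises snRNAs for the SMN complex, was 2.60 and 11.7 FPKM in knockdown cells in PBS and DMS, against 29.1 and 28.1 FPKM in control cells (log2 fold change -2.13 ± 0.40 SE, limma adjusted p = 0.00768). PRMT5, the arginine methyltransferase that modifies Sm tails, was 14.3 and 39.8 FPKM under the shRNA, against 89.4 and 83.6 FPKM in control. GEMIN4 was 7.07 and 15.4 FPKM under the shRNA, against 35.6 and 37.3 FPKM in control. The highest of this list were the deubiquitinases USP4 at 0.85 and USP15 at 0.78, both of which rose, and the joined row of SNUPN and PTPN9 at 0.33, which was not called. SMN1 was not found under its own name, and how reads of it and its near-identical copy SMN2, which has a row, were assigned is not known here.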

How the data were processed

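RNA-seq tables of 4 CA46 libraries were used, 1 for each virus and medium; 4 ChIP-seq samples and 1 input sample were not analysed here. Each deposited table held FPKM for 31016 rows, a unit read from its fractional values although the file titles speak of read counts. TopHat2 2.1.0, Cuffdiff 2.2.1, Bowtie2 2.2.6, MACS 1.4.2, fastp and bcl2fastq are named, with builds dm6 and hg19 and no role or order, per the submitters' processing notes. Annotation, strand setting and scaling between libraries: not given in the sources used here. Gene coordinates are hg19, counted from 1, and those of the printed promoter stretches are GRCh38.p14.

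Rows with no gene name (3919, or 25.2% and 22.4% of summed FPKM in the knockdown in PBS and DMS, against 15.7% and 14.3% in control), 30 rows whose name had become a date and 2039 small RNA symbols were left out. FPKM was summed per symbol, and the libraries were divided by a trimmed mean of log2 ratios (trims of 30% by ratio and 5% by level on each side), with factors of 0.953, 0.961, 1.05 and 1.04 for knockdown in PBS and DMS and control in PBS and DMS. The filter was a mean of 1 FPKM or more, and log2 ratios used a pseudocount of 1, which understates the change of low genes. Comparisons of single libraries carry no p-value. The test was limma 3.58.1 (R 4.3.3) with an intensity trend on log2(FPKM + 1), virus and medium as additive terms, threshold 0.05; a difference in DMS response between viruses enters its residual. It was checked on simulated data with a virus effect and independent noise. These held no difference in DMS response between viruses, so the check cannot show how the p-values behave where there is one. The members, lists and motifs were chosen with earlier results of these data known. By rule, the Sm ring, the lowest and highest ratio of each other list and members on the other side of 0 from their list are given in all libraries; LSM6, LSM10, LSM11, PRPF40B, SNRNP35, SNRNP40, SNRNP70, SNRNP200, GUCD1, SPPL2B, BAG4, TFPT and FKBP3 were added after their values were seen. Alternatives were the deposited scaling, median of ratios scaling, another pseudocount, no filter, joined rows left out, a 1.5-fold limit and other model terms. The values of 1 member that was tested and enters the counts and medians are not reported here.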

Additional observations from a re-analysis of the deposited data

Results flagged for a closer look

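The response to DMS had opposite signs in knockdown and control cells for the median of every list of members, with 1 library per group; this difference was not tested, and the knockdown library in DMS also held far more MYC mRNA than that in PBS. Over all members the median log2 ratio of DMS to PBS was 0.29 in knockdown cells and -0.11 in control cells. The median of all genes tested was 0.005 in knockdown cells and -0.040 in control cells. Rescaling places the all-gene median near 0, so its sign says little. With median of ratios scaling it was -0.0055 in knockdown cells and -0.035 in control cells, while the members' medians were 0.28 and -0.10. Spliceosome proteins outside the list had medians of 0.002 in knockdown cells, too near 0 for its sign to be read, and -0.12 in control cells. Opposite signs were not particular to the members, as snRNP assembly and transport genes had medians of 0.18 and -0.095 in the same order. The Sm ring stood at 0.62 in knockdown cells and -0.065 in control cells, and the U1-specific and U2-specific proteins at 0.54 and -0.17 in the same order. The LSM ring of U6 had medians of 0.37 in knockdown cells and -0.10 in control cells, and the other LSM proteins 0.048 and -0.037. SF3A and SF3B genes were at 0.13 in knockdown cells and -0.14 in control cells, the PRPF proteins of the tri-snRNP at 0.17 and -0.10, and the other PRPF proteins at 0.074 and -0.16.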

How the results depend on the processing

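With the values as deposited the median of all genes moved to -0.13 for the knockdown in PBS and -0.10 in DMS. The members' medians became -0.95 in PBS and -0.61 in DMS, 3 members were at least 2-fold lower in DMS (2 in the Sm ring and 1 in the LSM ring), 1 of the other LSM proteins was lower in PBS, and 1 member rose by limma; relative to all genes the medians were -0.82 and -0.51, against -0.80 and -0.51 after rescaling. That scaling gave 909 genes higher and 674 lower in DMS, where rescaled values gave 1077 and 394. It also put the median of the other PRPF proteins in DMS at -0.082, and no filter put it at -0.010, against 0.02. PRPF3 (0.08) was at -0.038 with the deposited values. A pseudocount of 0.1 made 2 of the other LSM proteins 2-fold lower in PBS. A 1.5-fold limit gave 18 members lower in DMS and 7 members different between DMS and PBS in knockdown cells. With no filter 18 of 46 members were called and 0 rose, and without the medium term 26 were called and 0 rose. Without the medium term and with each library left out in turn, members that fell ranged from 0 to 28, members that rose from 0 to 2 and all genes called from 0 to 7294 (3284 and 3575 at an unadjusted p under 0.05 where none was called); PRPF3 ranged down to -0.063, with -0.037 without the control library in DMS, and LSM1 was at 0.030 without the knockdown library in DMS. The counts of 0 arose where the spread came from the knockdown pair and a lone control library was assumed to vary like it. All other counts stayed within 1.5 times. The cause of these changes was not tested. No paired analysis was possible by replicate number, because each group has 1 library and the labels carry no shared number; the medium term already compares knockdown and control within each medium. Low genes such as LSM8 and LSM11 rest on fewer fragments per kilobase than most members, and the number itself is not known here.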
